A study of Mus musculus with 12 samples.

Results

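The genes described here are the conjugating enzymes and aldo-keto reductases of the mouse lung, taken as every gene whose symbol on the array begins Gsta, Gstk, Gstm, Gsto, Gstp, Gstt, Gstz, Mgst, Sult, Ugt1, Ugt2 or Akr1. A gene needed a probe paired with 1 symbol, and where it had several such probes the brightest stood for it. The rule found 63 genes of the 22180 measured. They were 18 cytosolic and kappa glutathione S-transferases (2 alpha, 1 kappa, 6 mu, 2 omega, 3 pi and 4 theta), 3 microsomal transferases, 21 sulfotransferases, 8 Ugt2 glucuronosyltransferases and 13 aldo-keto reductases. A further 15 symbols of these families, among them Gsta1, Gsta2, Gstz1 and every Ugt1 symbol, occurred only on probes paired with several symbols and are not among the 63.

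RNA was measured in whole lungs of 12 female mice aged 10 weeks, with 1 one-colour Affymetrix array per mouse and 3 mice in each of 4 groups. Wild type mice and Zmpste24-/- mice were each studied intact (baseline) and after mechanical ventilation for 2.5 h with room air (inspired oxygen fraction 0.21), at an inspiratory pressure of 15 cmH2O, zero end-expiratory pressure and 100 breaths per min. Zmpste24 is the metalloprotease that matures prelamin A, and its loss is a model of accelerated ageing. The labels give no strain and name no sham procedure, and the mouse is the replicate.

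Glutathione S-transferases join the thiol of glutathione to reactive electrophiles, such as the aldehydes left by lipid peroxidation. Sulfotransferases and UDP-glucuronosyltransferases add sulfate or glucuronic acid to phenols, steroids and amines, and aldo-keto reductases reduce carbonyl groups of aldehydes, ketones and steroids. In the lung these enzymes are known above all from the club cells of the airways, and many of them are known targets of the transcription factors NRF2 (gene Nfe2l2) and AHR.

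Because the binding sites of these factors are short, the 250 bases before the transcription start can be shown beside the measurements. RefSeq promoter sequences (GRCm38.p6) were found for 56 of the 63 genes, with 67 starts. None was found for Gsta4, Gstt2, Akr1c20, Sult2a1, Sult2a2, Sult2a7 and Sult4a1, so these were not searched. The core of the antioxidant response element was taken as TGACNNNGC and searched on both strands. It lay in 4 of the 56 genes (7.14%), against 3112 of all 27025 genes of the table (11.5%). Other forms of that element were not searched, so a gene without a match may still hold one. The core recognised by AHR, GCGTG on both strands, lay in 8 of the 56 (14.3%), against 30.9% of all genes. The matches to TGACNNNGC were in Gsta3, Gstm7, Mgst1 and Akr1cl, and those to GCGTG in Sult1d1, Mgst3, Gstp1, Gstp3, Gstm1, Akr1b8, Sult1b1 and Sult2b1. Shown here are Gsta3 and Mgst1, which passed the test and hold the first core, Sult1d1, which holds the second, and Akr1c14, the gene with the smallest adjusted p for genotype, which holds neither. Each is printed 5′ to 3′ on the strand of its gene and ends at the base before the start, with the match in capitals.
Gsta3, chr1:21240335-21240584, plus strand: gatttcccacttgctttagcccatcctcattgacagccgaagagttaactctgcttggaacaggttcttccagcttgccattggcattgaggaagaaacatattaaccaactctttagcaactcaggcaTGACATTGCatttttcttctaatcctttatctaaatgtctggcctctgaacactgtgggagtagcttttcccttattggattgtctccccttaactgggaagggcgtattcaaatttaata
Mgst1, chr6:138140277-138140526, plus strand: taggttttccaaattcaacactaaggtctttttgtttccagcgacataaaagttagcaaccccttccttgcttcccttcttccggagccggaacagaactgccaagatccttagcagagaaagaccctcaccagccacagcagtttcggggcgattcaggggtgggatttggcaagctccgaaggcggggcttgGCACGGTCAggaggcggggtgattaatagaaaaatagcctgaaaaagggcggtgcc
Sult1d1, chr5:87569007-87569256, minus strand: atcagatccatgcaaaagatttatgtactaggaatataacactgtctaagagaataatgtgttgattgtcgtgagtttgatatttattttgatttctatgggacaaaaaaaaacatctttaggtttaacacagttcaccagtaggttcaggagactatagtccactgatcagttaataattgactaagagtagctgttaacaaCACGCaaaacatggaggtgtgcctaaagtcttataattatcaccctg
Akr1c14, chr13:4059341-4059590, plus strand: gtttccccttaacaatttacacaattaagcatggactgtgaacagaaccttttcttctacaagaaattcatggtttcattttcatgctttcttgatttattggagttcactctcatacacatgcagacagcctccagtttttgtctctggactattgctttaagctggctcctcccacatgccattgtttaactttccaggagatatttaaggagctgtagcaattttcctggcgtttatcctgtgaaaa
The match in Gsta3 lay 121 to 113 bases before the start, and that in Mgst1 lay 56 to 48 bases before the first of its 2 starts, on the reverse strand. The match in Sult1d1 lay 47 to 43 bases before the start, also on the reverse strand. A match describes the letters of the window and does not show that a factor binds there.

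The arrays had medians of 5.35 to 5.42 on the log2 scale and correlated at 0.986 to 0.992 within a group and at 0.970 to 0.988 between groups. Zmpste24 itself stood at 8.50 to 9.28 on the wild type arrays and 5.01 to 5.91 on the Zmpste24-/- arrays, a fitted log2 difference of -3.29 ± 0.22 (SE) at baseline and -3.51 ± 0.22 under ventilation. Markers of alveolar type 2 cells (mean of 10 genes, 11.65 to 11.97 over the arrays), type 1 cells (9 genes, 10.42 to 10.93) and club cells (11 genes, 9.92 to 11.74) were bright on every array. Wild type baseline replicate 2 stood apart: there the mean of 17 hepatocyte genes was 7.47, against 4.98 to 5.88 on the other arrays, and the genes for albumin and the urinary protein Mup20 stood at 11.52 and 10.05. Leaving that array out took the members past the threshold from 7 to 6 for genotype at baseline and from 4 to 1 for ventilation in wild type. Over all genes that took those calls from 488 higher and 911 lower to 299 and 579 for genotype at baseline, and from 815 and 782 to 520 and 552 for ventilation in wild type. For members whose call it decides, the value without it is given.

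The families differed in how many members gave a bright signal. Of the 63 genes, 22 lay above the array's median on all 12 arrays and 35 below it on all 12. All 3 microsomal transferases, both alpha members, all 3 pi members, Gstk1 and 4 aldo-keto reductases were above it throughout. In contrast 7 of 8 Ugt2 genes, 17 of 21 sulfotransferases, including all 8 of the Sult2a group, and 8 of 13 aldo-keto reductases were below it throughout. The members with the highest means over all arrays were Gstp1 (10.14), Gsto1 (9.76) and Gsta4 (9.76). Levels of different genes were read by different probes and are not compared further.

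The members past the threshold between intact Zmpste24-/- and wild type lungs were all higher in Zmpste24-/-, and those past it for ventilation were all lower. Differences were tested with limma on the log2 values of all 22180 genes, and a gene passed at a Benjamini-Hochberg adjusted p under 0.05. At baseline 7 members were higher in Zmpste24-/- and 0 lower (11.1% of the 63): Akr1c14, Sult1d1, Gsta4, Gsta3, Sult1a1, Gstk1 and Mgst3. Of all genes 6.31% passed there in either direction, 2.2% as higher and 4.11% as lower. Under ventilation 4 members were higher in Zmpste24-/- (Akr1c14, Gstk1, Gsta3 and Gstp2) and 3 lower (Gstp3, Gstt2 and Akr1b10), again 11.1%, against 10.8% of all genes. Ventilation in wild type lowered 4 members and raised 0 (6.35%), against 7.2% of all genes: Gstk1, Gstt2, Akr1b10 and Gstt3. Ventilation in Zmpste24-/- lowered 9 members and raised 0 (14.3%), against 16.4% of all genes: Gstt2, Akr1b10, Mgst1, Sult1a1, Gstp3, Gsta4, Gstk1, Mgst3 and Mgst2. Akr1b8 was higher there (0.43) and missed the threshold (adjusted p = 0.0594), but passed under several alternatives given below. The share of members called was thus below that of all genes for ventilation in each genotype, close to it for genotype under ventilation and above it for genotype at baseline, before any cut on signal. In all, 14 of the 63 passed in at least 1 comparison and 49 in none.

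The direction counts have their own backgrounds. On ventilation in wild type 3.67% of all genes passed as higher and 3.53% as lower, against 0 members and 6.35% of the members. In Zmpste24-/- 8.89% of all genes passed as higher and 7.52% as lower, against 0 members and 14.3%. For genotype under ventilation 4.72% of all genes were higher and 6.08% lower, against 6.35% and 4.76% of the members. The median difference over the 63 members was -0.04 and -0.05 in these comparisons, against -0.01 over all genes in both. For genotype the member medians were 0.02 at baseline and 0.01 under ventilation, against -0.01 and 0.01 over all genes. Every member that passed belonged to the 26 whose mean over all arrays exceeded the mean array median. Among all genes above that level 9.57% passed for genotype at baseline and 16.1% under ventilation, against 26.9% of the 26 members in each. For ventilation 11.1% of those genes passed in wild type and 25.9% in Zmpste24-/-, against 15.4% and 34.6% of the 26 members. The members' share was thus above that of all genes past the same cut in each of these 4 comparisons, a description with no test. The cut does not match the 26 to those genes in signal, since members such as Gstp1 (mean 10.14) lie far above it. The members Akr1b10, Gstk1 and Gstt2 were lower on ventilation in both genotypes, which is 75% of the wild type calls and 33.3% of the Zmpste24-/- calls, and these comparisons share no arrays. A genotype comparison and a ventilation comparison share 3 arrays, such as the Zmpste24-/- baseline arrays for Gsta4, Mgst3 and Sult1a1, so their values are given side by side only.

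Scaling moved the split of all genes and some of the members' calls. Normalizing by quantiles once more took the share of genotype calls at baseline that were higher in Zmpste24-/- from 34.9% to 45.8% over all genes. The 7 members stayed higher. On ventilation of Zmpste24-/- that setting added Akr1b8 as higher (0.49, adjusted p = 0.0392) and Gstm2 as lower (-0.33, adjusted p = 0.0272). It lost Mgst2 there (adjusted p = 0.0583). For genotype under ventilation it added Mgst3 (0.3, adjusted p = 0.0407) and lost Gstp2 and Akr1b10 (adjusted p = 0.0515 and 0.0783). Subtracting each array's median took the share of genotype calls under ventilation that were higher from 43.7% to 61.1% over all genes. The members went from 4 higher and 3 lower to 5 and 2. Mgst3 was then added (0.31, adjusted p = 0.0407) and Akr1b10 lost (adjusted p = 0.0619).

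**Figure D1:**
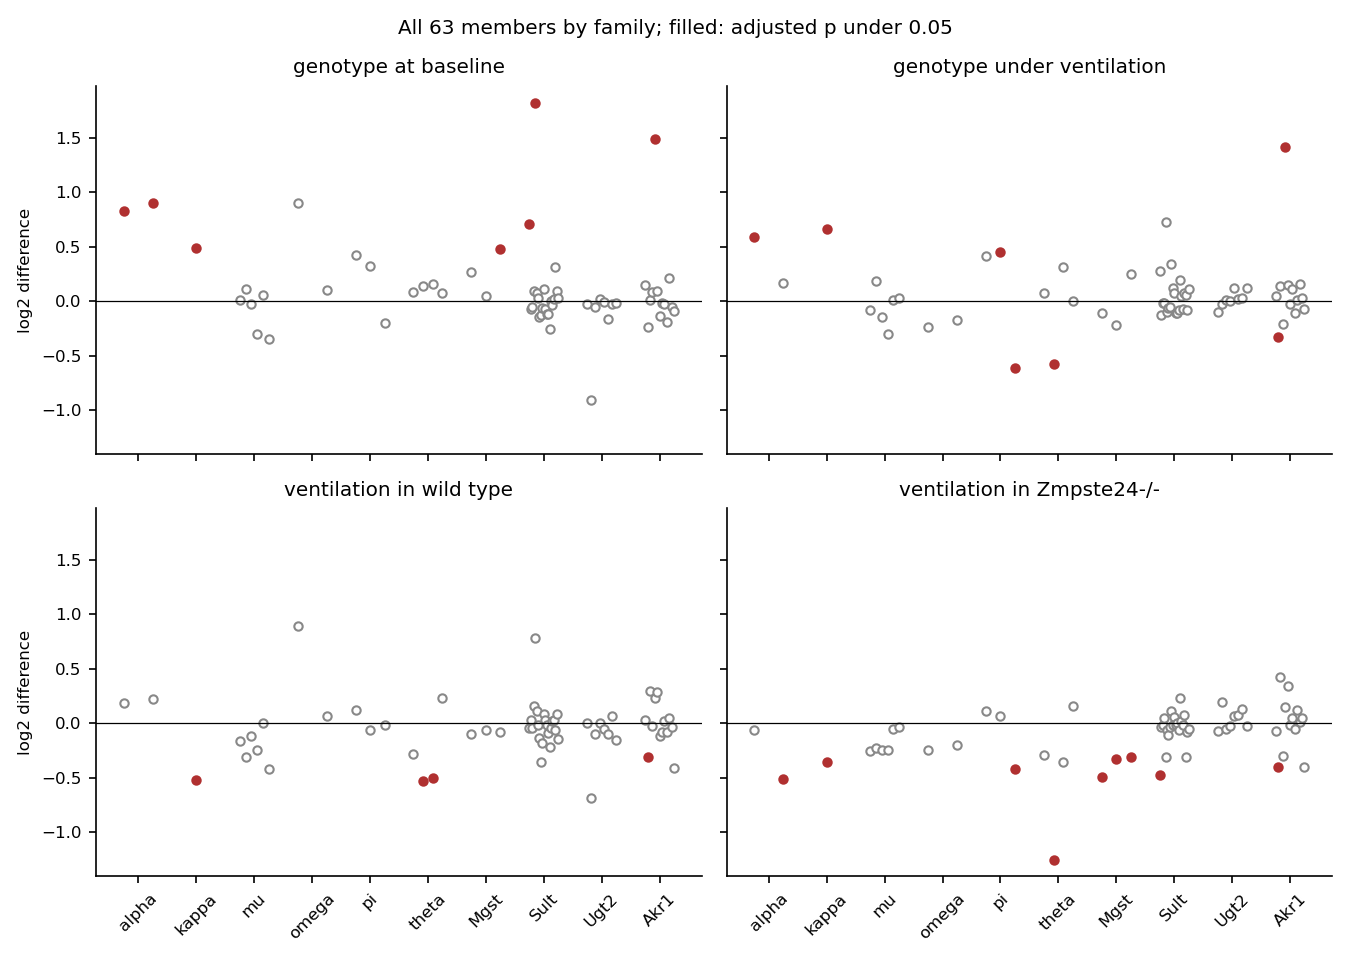
Fitted log2 differences of all 63 members by family in the 4 comparisons (genotype is Zmpste24-/- minus wild type, ventilation is ventilated minus baseline), each point a gene, filled where the adjusted p was under 0.05. The filled points of both ventilation panels lie below 0 and those of genotype at baseline above it.

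Both alpha class transferases were higher in Zmpste24-/- at baseline. Gsta4 conjugates hydroxynonenal, an aldehyde of lipid peroxidation. Its log2 values were 9.40, 9.32 and 9.42 in wild type at baseline and 10.42, 10.21 and 10.22 in Zmpste24-/- at baseline. After ventilation they were 9.93, 9.32 and 9.56 in wild type and 9.71, 9.87 and 9.73 in Zmpste24-/-. The 3 Zmpste24-/- baseline arrays thus lay above all 9 others. Gsta4 was 0.90 ± 0.13 (SE) higher in Zmpste24-/- at baseline, a fold of 1.87 (limma, adjusted p = 0.00159), and fell by 0.51 ± 0.13 on ventilation of those mice (adjusted p = 0.0129). In wild type the ventilation difference was 0.22 (adjusted p = 0.365), and the difference between the genotypes' responses was -0.73 ± 0.18, which did not pass (adjusted p = 0.106). The fall in Zmpste24-/- was lost without Zmpste24-/- baseline replicate 1 (-0.44, adjusted p = 0.0547) or ventilated replicate 3 (-0.49, adjusted p = 0.0513).

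Gsta3, which in the mouse conjugates the epoxide of aflatoxin, differed by genotype and not detectably by ventilation. It stood at 8.26, 8.49 and 7.82 in wild type at baseline and 9.10, 8.89 and 9.07 in Zmpste24-/-. After ventilation it stood at 8.45, 8.60 and 8.09 in wild type and 9.05, 9.06 and 8.80 in Zmpste24-/-. All 6 Zmpste24-/- arrays lay above all 6 wild type arrays. The genotype difference was 0.83 ± 0.16 at baseline (fold 1.78, adjusted p = 0.00803) and 0.59 ± 0.16 under ventilation (adjusted p = 0.0313). The second was lost without wild type ventilated replicate 3 (0.44, adjusted p = 0.134) or Zmpste24-/- ventilated replicate 1 or 2 (0.55 and 0.54, adjusted p = 0.101 and 0.102). The ventilation differences were 0.19 in wild type and -0.06 in Zmpste24-/-.

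Gstk1, a transferase of mitochondria and peroxisomes, was the only member that passed in all 4 comparisons. Its values were 9.54, 9.65 and 9.57 in wild type at baseline, 9.06, 9.19 and 8.97 in wild type ventilated, 10.08, 10.01 and 10.16 in Zmpste24-/- at baseline and 9.88, 9.62 and 9.71 in Zmpste24-/- ventilated. No 2 of the groups compared overlapped. It was higher in Zmpste24-/- by 0.49 ± 0.09 at baseline (fold 1.41, adjusted p = 0.00632) and by 0.66 ± 0.09 under ventilation (adjusted p = 0.000654). Ventilation lowered it in both genotypes, with differences of -0.52 ± 0.09 in wild type (adjusted p = 0.00376) and -0.35 ± 0.09 in Zmpste24-/- (adjusted p = 0.0162), and the interaction was 0.17 ± 0.13 (adjusted p = 0.687). The fall in Zmpste24-/- was lost without Zmpste24-/- baseline replicate 3 (-0.31, adjusted p = 0.0703) or ventilated replicate 2 (-0.29, adjusted p = 0.0805) or 3 (-0.34, adjusted p = 0.06).

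The pi class split by member. Gstp1 and Gstp2 encode near-identical enzymes, and 1 probe of the array was paired with both symbols, so their separate values are uncertain. Gstp2 stood at 9.31, 9.26 and 9.42 in wild type at baseline, 9.47, 9.34 and 9.0 in wild type ventilated, 9.55, 9.6 and 9.80 in Zmpste24-/- at baseline and 9.74, 9.71 and 9.70 in Zmpste24-/- ventilated. It was 0.45 ± 0.11 higher in Zmpste24-/- under ventilation (fold 1.36, adjusted p = 0.0214), with 0.32 at baseline (adjusted p = 0.112). The call was lost without wild type ventilated replicate 3 (0.31, adjusted p = 0.0837) or any 1 of the 3 Zmpste24-/- ventilated arrays (0.43 to 0.45, adjusted p = 0.058 to 0.0655), and after a further quantile normalization (0.39, adjusted p = 0.0515). Gstp1 gave 9.70, 9.85 and 10.07, then 10.31, 9.96 and 9.73, then 10.62, 10.05 and 10.22, then 10.54, 10.57 and 10.11 in the same order of groups. The groups of Gstp1 overlapped in each comparison, with genotype differences of 0.42 and 0.41 (adjusted p = 0.192 and 0.167).

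Gstp3, the third neighbour in that cluster, went the other way. It stood at 7.61, 7.75 and 7.61 in wild type at baseline, 7.56, 7.67 and 7.70 in wild type ventilated, 7.45, 7.64 and 7.30 in Zmpste24-/- at baseline and 7.08, 7.14 and 6.89 in Zmpste24-/- ventilated. The 3 ventilated Zmpste24-/- arrays were the lowest of the 12. Gstp3 was lower in Zmpste24-/- under ventilation by the difference of -0.61 ± 0.10 (fold 1.52 lower, adjusted p = 0.0022), and in Zmpste24-/- it fell by 0.42 ± 0.10 on ventilation (adjusted p = 0.0103). These 2 comparisons share the ventilated Zmpste24-/- arrays. The fall was lost without Zmpste24-/- baseline replicate 2 (-0.34, adjusted p = 0.0509) or ventilated replicate 3 (-0.35, adjusted p = 0.0576).

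**Figure D2:**
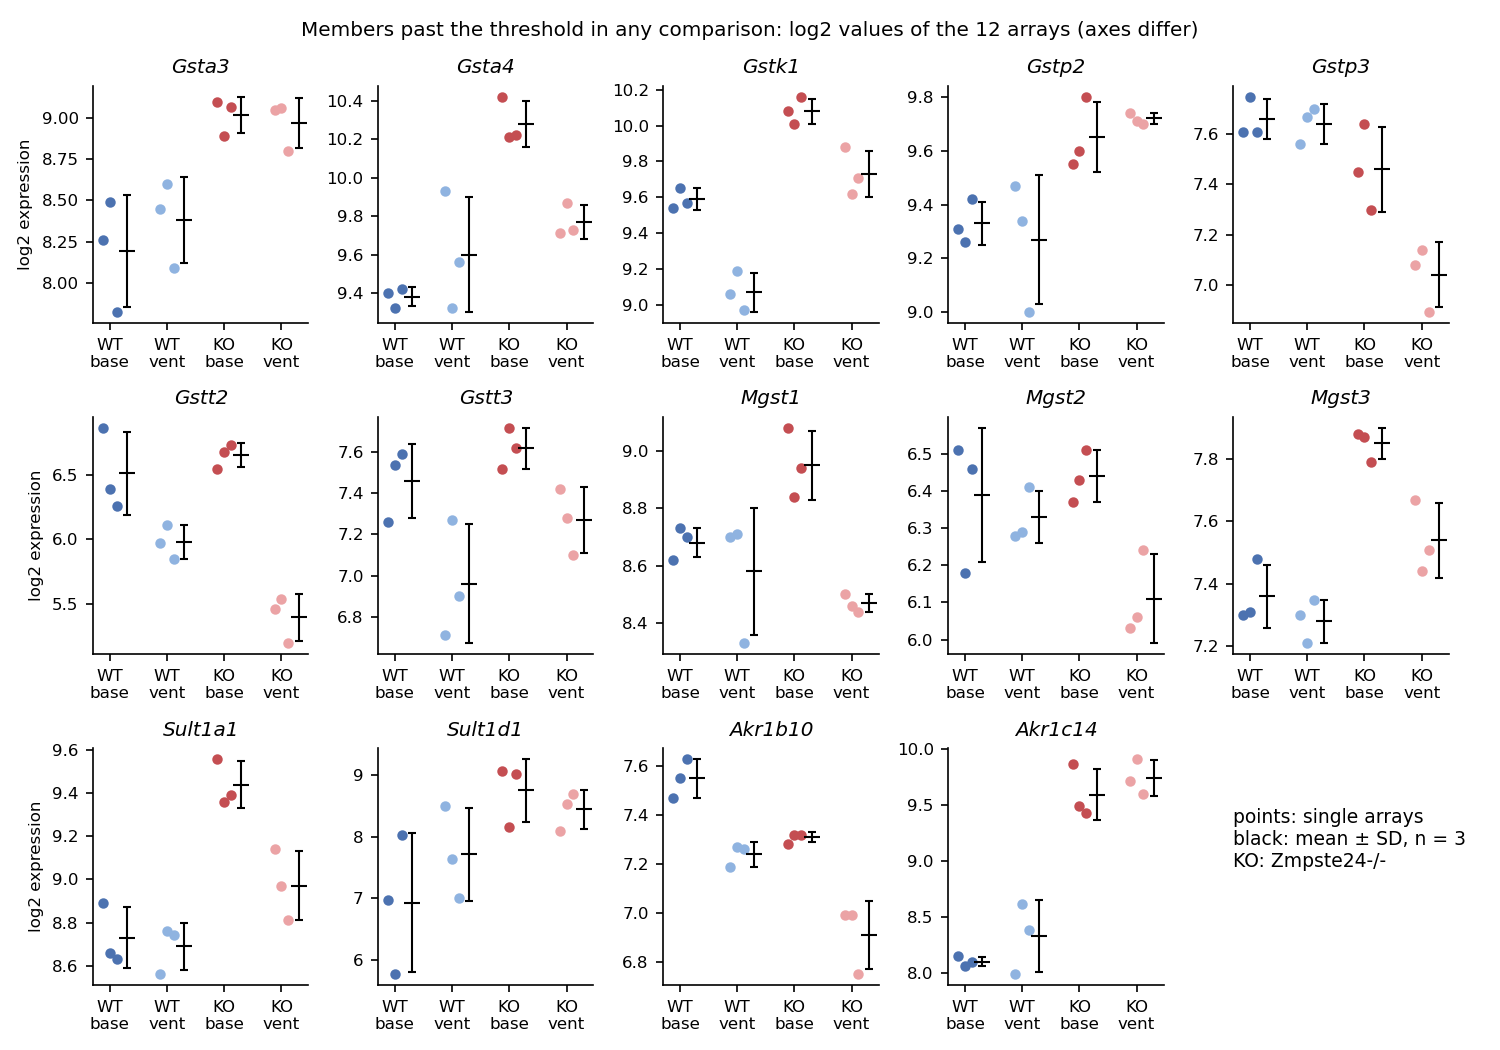
Log2 values of the 14 members that passed in any comparison on the 12 arrays, by group, with the mean ± SD of the 3 arrays in black; each panel has its own axis. In Akr1c14 and Gsta3 both Zmpste24-/- groups lie above both wild type groups, and in Gstt2 the ventilated Zmpste24-/- arrays (5.46, 5.54 and 5.20) lie below all others.

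Gstt2 had the largest ventilation difference of the 63 genes. Theta transferases act on small halogenated molecules and sulfate esters. Gstt2 stood at 6.86, 6.39 and 6.26 in wild type at baseline and 5.97, 6.11 and 5.85 in wild type ventilated. In Zmpste24-/- it stood at 6.54, 6.67 and 6.73 at baseline and 5.46, 5.54 and 5.20 ventilated. The ventilated arrays lay below the baseline arrays in each genotype. Its fall was 1.25 on the log2 scale in Zmpste24-/- (difference -1.25 ± 0.14, fold 2.37, adjusted p = 5.87e-05), which held under every alternative run. In wild type the difference was -0.53 ± 0.14 (adjusted p = 0.0376). That call was lost without wild type baseline replicate 1 or 2 or ventilated replicate 1 or 3 (-0.58 to -0.35, adjusted p = 0.0564 to 0.147), and when the compared groups were fitted alone (adjusted p = 0.0965). Under ventilation Gstt2 was lower in Zmpste24-/- by -0.58 ± 0.14 (adjusted p = 0.018), lost without wild type ventilated replicate 2 (-0.51, adjusted p = 0.0788) or Zmpste24-/- ventilated replicate 3 (-0.48, adjusted p = 0.0826). The interaction of -0.72 ± 0.20 did not pass (adjusted p = 0.154), though without wild type baseline replicate 1 it was -0.90 (adjusted p = 0.0353).

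The other 3 theta genes are its neighbours in the genome, and 1 of them, Gstt3, passed. Gstt3 stood at 7.26, 7.54 and 7.59 in wild type at baseline and 6.71, 7.27 and 6.90 after ventilation, and at 7.52, 7.72 and 7.62 in Zmpste24-/- and 7.42, 7.28 and 7.10 after ventilation. It fell on ventilation in wild type (-0.50 ± 0.14, adjusted p = 0.0444), where the groups overlapped by 1 array on each side. That call was lost without wild type baseline replicate 2 or 3 or ventilated replicate 1 or 3 (-0.47 to -0.37, adjusted p = 0.129 to 0.151), and with array weights (-0.46, adjusted p = 0.0689) or the compared groups alone (adjusted p = 0.111). In Zmpste24-/- its difference was -0.35 (adjusted p = 0.107), which passed when the compared groups were fitted alone (adjusted p = 0.042) or with array weights (-0.37, adjusted p = 0.039). Gstt1 gave -0.28 and -0.29 (adjusted p = 0.311 and 0.222), and without Zmpste24-/- ventilated replicate 1 the second was -0.48 (adjusted p = 0.0151). Gstt4, below the array median throughout, gave 0.23 and 0.16.

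Gsto1 was variable within groups. This omega class member reduces dehydroascorbate and arsenic acids. It stood at 9.13, 8.91 and 9.41 in wild type at baseline and 10.69, 9.68 and 9.77 in wild type ventilated, and at 10.65, 9.44 and 10.06 in Zmpste24-/- at baseline and 9.55, 9.92 and 9.95 ventilated. The wild type baseline arrays were the 3 lowest of the 12. Neither the ventilation difference in wild type (0.89 ± 0.29, adjusted p = 0.0816) nor the genotype difference at baseline (0.90 ± 0.29, adjusted p = 0.0835) passed, and the interaction was -1.14 ± 0.40 (adjusted p = 0.268). Without Zmpste24-/- baseline replicate 2 both passed, at 0.89 (adjusted p = 0.0457) and 1.20 (adjusted p = 0.0273). The first also passed without Zmpste24-/- baseline replicate 1 (adjusted p = 0.0448), and the second without wild type ventilated replicate 1 (0.90, adjusted p = 0.0376). In the other direction, the first was 0.57 (adjusted p = 0.256) without wild type ventilated replicate 1, and the second 0.60 (adjusted p = 0.254) without Zmpste24-/- baseline replicate 1. Its neighbour Gsto2 ranged from -0.20 to 0.10 in the 4 comparisons.

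The mu class, 6 genes in 1 cluster, had no member past the threshold in any comparison. Their differences were 0 or below in both ventilation comparisons, from -0.42 to 0.00 in wild type and from -0.25 to -0.03 in Zmpste24-/-, with medians of -0.20 and -0.23. Gstm2 came nearest in wild type (-0.31, adjusted p = 0.0599). It passed there without wild type baseline replicate 1 (-0.37, adjusted p = 0.0433). With the filter at the median of mean expression (adjusted p = 0.0381) or a trended, robust variance (adjusted p = 0.0444) it passed there too. In Zmpste24-/- it passed after a further quantile normalization (-0.33, adjusted p = 0.0272). The genotype differences of the class ran from -0.35 to 0.11 at baseline and from -0.30 to 0.18 under ventilation.

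The microsomal transferases, membrane proteins some of which also join glutathione to leukotrienes, all 3 passed as lower on ventilation of Zmpste24-/- lungs. In wild type 0 of 3 passed. Of all genes 7.52% passed as lower in Zmpste24-/- and 3.53% in wild type. Among genes with a mean above the mean array median these shares were 11.8% and 5.51%, and 0 of 3 is near the wild type shares. Mgst1 stood at 9.08, 8.84 and 8.94 in Zmpste24-/- at baseline and 8.50, 8.46 and 8.44 ventilated, and at 8.62, 8.73 and 8.70 in wild type at baseline and 8.70, 8.71 and 8.33 ventilated. Its fall in Zmpste24-/- was -0.49 ± 0.10 (fold 1.40 lower, adjusted p = 0.00568) and held under every alternative run. Mgst3 stood at 7.88, 7.87 and 7.79 in Zmpste24-/- at baseline and 7.67, 7.44 and 7.51 ventilated, and at 7.30, 7.31 and 7.48 in wild type at baseline and 7.30, 7.21 and 7.35 ventilated. All 3 baseline Zmpste24-/- arrays of Mgst3 lay above the other 9.

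Mgst3 was 0.48 ± 0.09 higher in Zmpste24-/- at baseline (fold 1.40, adjusted p = 0.00551) and fell by 0.31 ± 0.09 there on ventilation (adjusted p = 0.0247). The fall was lost without Zmpste24-/- baseline replicate 1 or 2 or ventilated replicate 2 or 3 (-0.30 to -0.26, adjusted p = 0.0734 to 0.113). Mgst2 stood at 6.37, 6.43 and 6.51 in Zmpste24-/- at baseline and 6.03, 6.06 and 6.24 ventilated, and at 6.51, 6.18 and 6.46 in wild type at baseline and 6.28, 6.29 and 6.41 ventilated. It fell by 0.33 ± 0.10 in Zmpste24-/- (adjusted p = 0.0368), a call lost without any 1 of the 3 baseline arrays or ventilated replicate 1 or 2 (-0.36 to -0.29, adjusted p = 0.0502 to 0.13), after a further quantile normalization (-0.28, adjusted p = 0.0583) or with a trended, robust variance (adjusted p = 0.053). In wild type the 3 differences ran from -0.10 to -0.06. The interactions, -0.38, -0.27 and -0.23, did not pass (adjusted p = 0.314 to 0.51), so a difference between the genotypes was not shown.

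**Figure D3:**
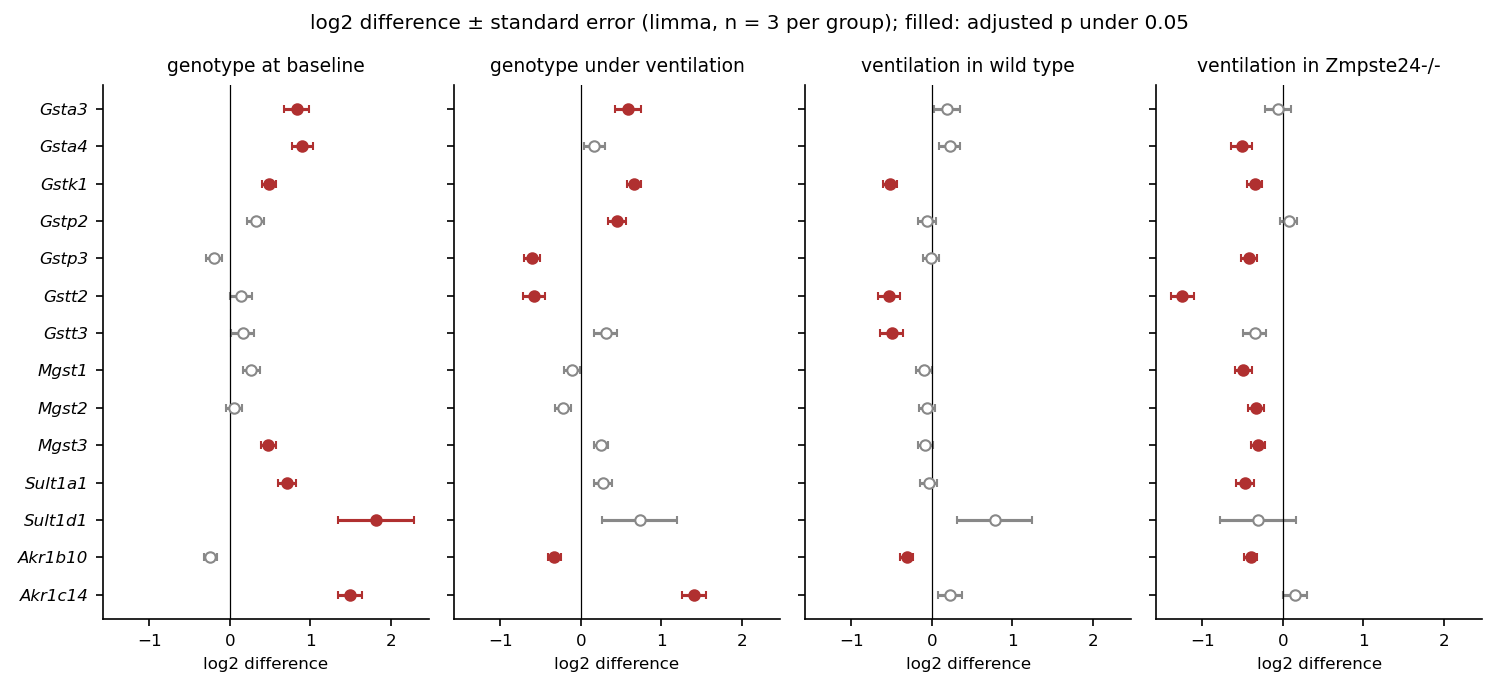
Fitted log2 difference ± SE of the 14 members that passed in any comparison, filled where the adjusted p was under 0.05; 3 arrays per group. Gstk1 is filled in all 4 panels, Akr1c14 in both genotype panels (1.49 and 1.41), and all 3 Mgst genes in ventilation of Zmpste24-/-.

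Among the sulfotransferases 2 of 21 passed for genotype at baseline (9.52%, against 6.31% of all genes) and 1 for ventilation of Zmpste24-/- (4.76%, against 16.4%). Sult1a1, which sulfates simple phenols, stood at 8.89, 8.66 and 8.63 in wild type at baseline, 8.56, 8.76 and 8.74 in wild type ventilated, 9.56, 9.36 and 9.39 in Zmpste24-/- at baseline and 9.14, 8.97 and 8.81 in Zmpste24-/- ventilated. The Zmpste24-/- baseline arrays were the highest of the 12. It was 0.71 ± 0.11 higher in Zmpste24-/- at baseline (fold 1.64, adjusted p = 0.00224) and fell there by 0.47 ± 0.11 on ventilation (adjusted p = 0.00844). Both calls held under every alternative run, although they share the Zmpste24-/- baseline arrays. In wild type the ventilation difference was -0.04 ± 0.11, and the interaction was -0.43 ± 0.15 (adjusted p = 0.263).

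Sult1d1, which sulfates catecholamines, had the largest genotype difference of the set at baseline on all 12 arrays. It stood at 6.98, 5.77 and 8.03 in wild type at baseline and 9.07, 8.15 and 9.02 in Zmpste24-/-. After ventilation it stood at 8.49, 7.63 and 7.0 in wild type and 8.09, 8.53 and 8.69 in Zmpste24-/-. At baseline the groups did not overlap, and after ventilation they did. The baseline difference was 1.82 ± 0.47 (fold 3.53, adjusted p = 0.0354), and that under ventilation 0.73 ± 0.47 (adjusted p = 0.381). The second was 1.12 without wild type ventilated replicate 1 and 0.37 without replicate 3 (adjusted p = 0.172 and 0.747). The baseline call was lost without wild type baseline replicate 1 (1.85, adjusted p = 0.0815). It was also lost without replicate 2, the array with the highest hepatocyte mean (1.24, adjusted p = 0.117, then below the 1.47 of Akr1c14). Leaving out Zmpste24-/- baseline replicate 1 (1.66, adjusted p = 0.106) or 3 (1.68, adjusted p = 0.123) lost it too. It was lost as well with a trended, robust variance (adjusted p = 0.125) and with the compared groups alone (adjusted p = 0.0718).

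Sult1d1 and Gsto1 moved with the mean of 11 club cell markers from array to array. The mean of the 11 club cell genes was 10.51, 9.92 and 11.22 in wild type at baseline, 11.52, 11.04 and 10.84 in wild type ventilated, 11.74, 10.20 and 11.51 in Zmpste24-/- at baseline and 10.57, 10.70 and 11.08 in Zmpste24-/- ventilated. The markers did not all move with this mean. Over the 12 arrays Scgb1a1 ran only from 13.12 to 13.30 and Cyp2f2 from 12.85 to 13.14, while Scgb3a2 ran from 10.36 to 11.31. The mean therefore follows its more variable genes and is not a measure of club cell number. Within each of the 4 groups the order of the arrays in Sult1d1 was the order in the club cell mean. Gsto1 had that order in 3 of the groups and departed from it in wild type ventilated, where replicates 2 and 3 changed places. With the club cell mean as a covariate, chosen after the arrays were seen, Sult1d1 was higher in Zmpste24-/- at baseline by 1.14 ± 0.26 (adjusted p = 0.0302), below the 1.49 of Akr1c14 in that fit. Under ventilation its difference was then 1.12 ± 0.25 and passed as well (adjusted p = 0.0116). Gsto1 then gave 0.51 for both of the differences that were near 0.90 (adjusted p = 0.142 and 0.158). In whole lung, fewer cells of a type and less RNA per cell cannot be told apart.

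**Figure D4:**
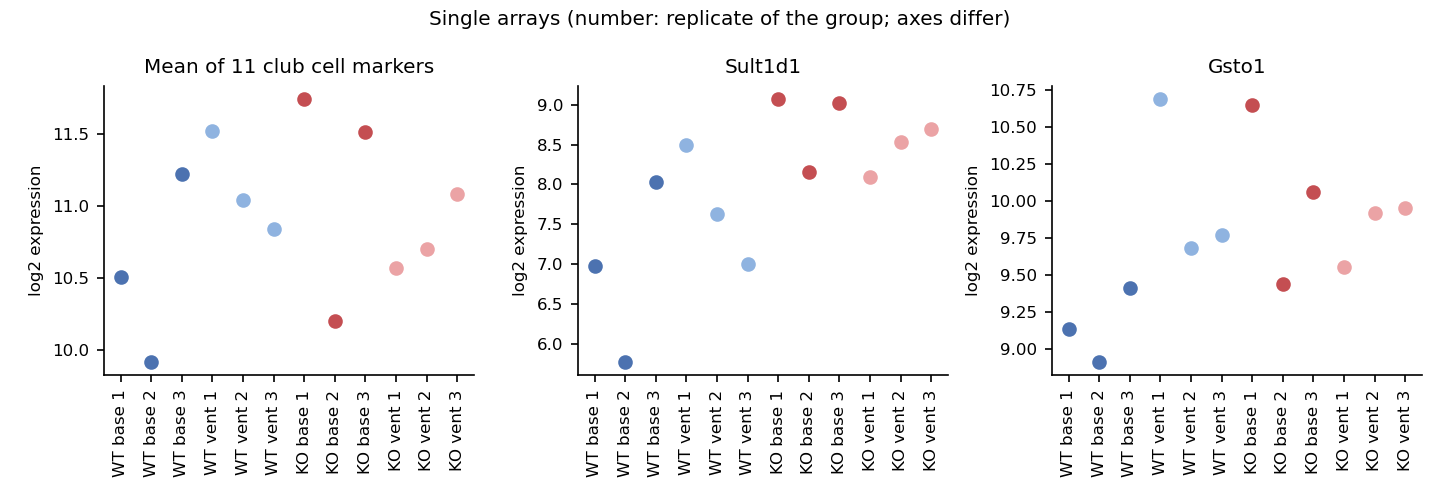
Log2 values on single arrays of the mean of 11 club cell markers, Sult1d1 and Gsto1, labelled by group and replicate; each panel has its own axis. Wild type baseline replicate 2 is the lowest array in all 3 panels (9.92, 5.77 and 8.91), and Zmpste24-/- baseline replicate 2 is the lowest of its group in each.

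The remaining 19 sulfotransferases did not pass in any comparison. Their differences ran from -0.26 to 0.31 for genotype at baseline and from -0.35 to 0.16 for ventilation in wild type. Sult2b1, which sulfates cholesterol, had the smallest adjusted p of the family for the interaction (0.46 ± 0.13, adjusted p = 0.175). Sult5a1 gave -0.31 on ventilation of Zmpste24-/- (adjusted p = 0.0972). The 8 Sult2a genes, bile acid and steroid sulfotransferases in 1 cluster, were dim on every array and ran from -0.15 to 0.34 in the genotype comparisons.

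The 8 Ugt2 genes were dim and none passed. Ugt2b1, a glucuronosyltransferase abundant in liver, stood at 4.09, 5.88 and 4.26 in wild type at baseline, 4.09, 4.12 and 3.97 in wild type ventilated, 3.79, 3.96 and 3.76 in Zmpste24-/- at baseline and 4.0, 4.14 and 3.96 in Zmpste24-/- ventilated. The high value was that of the array with the highest hepatocyte mean. Its baseline genotype difference of -0.91 ± 0.32 (adjusted p = 0.117) was -0.34 without that array (adjusted p = 0.0825), and -1.23 (adjusted p = 0.046) without wild type baseline replicate 1. The other 7 ran from -0.16 to 0.02 in that comparison.

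Among the aldo-keto reductases Akr1c14 gave the clearest genotype difference of all members. It encodes a hydroxysteroid dehydrogenase. Its values were 8.15, 8.06 and 8.10 in wild type at baseline and 9.86, 9.49 and 9.43 in Zmpste24-/-. After ventilation they were 7.99, 8.62 and 8.38 in wild type and 9.71, 9.91 and 9.6 in Zmpste24-/-. The lowest Zmpste24-/- array lay above the highest wild type array. The difference was 1.49 ± 0.15 at baseline (fold 2.81, adjusted p = 0.000168) and 1.41 ± 0.15 under ventilation (fold 2.66, adjusted p = 0.000142), and both held under every alternative run. Ventilation differences were 0.23 in wild type and 0.15 in Zmpste24-/- (adjusted p = 0.442 and 0.612).

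The neighbours of Akr1c14 did not share its difference. The 6 other Akr1c genes of its cluster were below the array median throughout, and their genotype differences ran from -0.19 to 0.09 at baseline and from -0.21 to 0.15 under ventilation. Akr1e1, at the end of that cluster, gave -0.09 and -0.07 for genotype. On ventilation Akr1e1 gave -0.41 in wild type (adjusted p = 0.0965) and -0.40 in Zmpste24-/- (adjusted p = 0.0688), without overlap of groups in either. Leaving out wild type ventilated replicate 2 brought the first past the threshold (-0.53, adjusted p = 0.0481), and leaving out Zmpste24-/- baseline replicate 2 the second (-0.51, adjusted p = 0.0376). The second also passed with the filter at the median of mean expression (adjusted p = 0.0414) and with array weights (-0.37, adjusted p = 0.0409).

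Akr1b10, an aldose reductase relative, fell on ventilation in both genotypes. It stood at 7.47, 7.55 and 7.63 in wild type at baseline and 7.19, 7.27 and 7.26 ventilated, and at 7.28, 7.32 and 7.32 in Zmpste24-/- at baseline and 6.99, 6.99 and 6.75 ventilated. The fall was 0.40 in Zmpste24-/- (difference -0.40 ± 0.08, adjusted p = 0.00509), held under every alternative run, and -0.31 ± 0.08 in wild type (adjusted p = 0.0405). The wild type call was lost without any 1 array of the comparison other than baseline replicate 1 (-0.33 to -0.27, adjusted p = 0.0716 to 0.119), with a trended, robust variance (adjusted p = 0.0556), with array weights (-0.29, adjusted p = 0.0701) and with the compared groups alone (adjusted p = 0.0936). It was also lower in Zmpste24-/- under ventilation (-0.33 ± 0.08, adjusted p = 0.0231), a call lost without wild type ventilated replicate 2 or 3 or Zmpste24-/- ventilated replicate 3 (-0.32 to -0.25, adjusted p = 0.074 to 0.104), with each array's median subtracted (-0.27, adjusted p = 0.0619), after a further quantile normalization (-0.26, adjusted p = 0.0783) and with the compared groups alone (adjusted p = 0.0532). Its neighbour Akr1b8 ran the other way on ventilation of Zmpste24-/- (0.43, adjusted p = 0.0594). Without Zmpste24-/- baseline replicate 1 that difference was 0.56 (adjusted p = 0.0268), and with array weights 0.54 (adjusted p = 0.0068). It also passed after a further quantile normalization (0.49, adjusted p = 0.0392) and with the filter at the 25th percentile of mean expression (adjusted p = 0.0471). The compared groups alone (adjusted p = 0.046) and the replicate block (adjusted p = 0.0473) brought it past the threshold too. Akr1a1, the aldehyde reductase that makes a precursor of vitamin C in mice, ranged from -0.07 to 0.15.

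No member passed for the interaction, which asks whether ventilation acted differently in the 2 genotypes, and 0.316% of all genes did. At an unadjusted p under 0.05 stood 8 of the 63 members and 11.7% of all genes. The 8 were Gsta4, Gstt2, Sult2b1, Gstp3, Sult1a1, Gsto1, Mgst1 and Sult2a3. The limma fits with other settings on all 12 arrays gave 0 members as well, with 6 to 11 at an unadjusted p under 0.05 and a smallest adjusted p of 0.0635 to 0.127.

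The markers of other cell types moved in the same comparisons, and their part in the members' differences was not tested beyond the club cell covariate. Of 11 club cell genes, 2 were higher in Zmpste24-/- at baseline, Cyp2b10 (0.81) and Aldh1a7 (0.66), and both were higher under ventilation too (0.52 and 0.53). The median over the 11 was 0.66 for genotype at baseline (0.16 without wild type baseline replicate 2, the array with the lowest club cell mean), -0.21 under ventilation, 0.12 for ventilation in wild type and -0.37 in Zmpste24-/-. With the club cell mean as a covariate the 7 members higher in Zmpste24-/- at baseline all passed, as did 8 of the 9 that fell in Zmpste24-/-, all but Mgst2. In wild type 2 genes then passed for ventilation, Gstk1 and Gstm2, so that Gstt2 (-0.48), Gstt3 (-0.43) and Akr1b10 (-0.29) no longer did (adjusted p = 0.103, 0.124 and 0.104). Gsta3 missed the threshold for genotype under ventilation (0.56, adjusted p = 0.0504), and Mgst2 for ventilation in Zmpste24-/- (-0.30, adjusted p = 0.0678).

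Beside the cell type counts, 3.67% of all genes passed as higher and 3.53% as lower for ventilation in wild type. In Zmpste24-/- 8.89% and 7.52% did. For genotype 2.2% and 4.11% passed at baseline, and 4.72% and 6.08% under ventilation. Members that fell on ventilation numbered 9 in Zmpste24-/- and 4 in wild type. Ciliated cell genes were lower in 8 of 12 (median -0.54) and 0 of 12 in the same 2 comparisons. Their mean over the 12 genes was 8.03 to 8.45 in Zmpste24-/- at baseline and 7.55 to 7.77 ventilated, and 7.74 to 8.17 and 7.79 to 8.07 in wild type. For genotype at baseline all 12 differences were above 0 (median 0.26) and 0 passed, and under ventilation 1 was lower. Endothelial genes were lower on ventilation in 9 of 10 in wild type and 7 of 10 in Zmpste24-/-, with means of 10.45 to 10.53 against 9.88 to 9.99 and 10.12 to 10.29 against 9.72 to 9.89. They were also lower in Zmpste24-/- in 4 of 10 at baseline and 3 of 10 under ventilation, where 1 was higher. Neutrophil genes were higher in 4 of 9 and 8 of 9, with means of 6.25 to 6.88 against 7.14 to 7.69 and 6.60 to 7.34 against 8.35 to 8.49. They were higher in Zmpste24-/- in 1 of 9 at baseline and 6 of 9 under ventilation. Macrophage and monocyte genes were lower in Zmpste24-/- at baseline in 3 of 10, with means of 7.81 to 7.98 against 8.10 to 8.29. Fibroblast and smooth muscle genes were lower in Zmpste24-/- in 4 of 10 at baseline and 6 of 10 under ventilation, where 1 was higher. Their means were 9.57 to 9.79 and 9.24 to 9.27, against 10.10 to 10.23 and 9.86 to 10.07 in wild type. On ventilation 3 of 10 were lower in wild type and 4 of 10 in Zmpste24-/-. Of 17 hepatocyte genes 4 were lower in Zmpste24-/- at baseline and 2 were lower on ventilation in wild type, with means of 5.46 to 7.47 in wild type at baseline, 5.10 to 5.81 in wild type ventilated, 4.98 to 5.15 in Zmpste24-/- at baseline and 5.08 to 5.24 in Zmpste24-/- ventilated. Without wild type baseline replicate 2 these counts were 3 and 2, and the medians over the 17 moved from -0.90 to -0.45 and from -0.63 to -0.11. The endothelial counts were then 1 of 10 for genotype at baseline and 7 of 10 for ventilation in wild type, the macrophage count 2 of 10, and the neutrophil count in wild type 2 of 9. Of the 12 ciliated cell genes, 1 was then lower for ventilation in wild type (median -0.13) and 3 were lower for genotype under ventilation. Their median for genotype at baseline was then 0.17.

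Several genes of glutathione synthesis rose on ventilation, and 0 of the 21 glutathione transferases passed as higher. Of all genes 3.67% passed as higher in wild type and 8.89% in Zmpste24-/-, so 0 of 21 is not far from the share of all genes. The counts of the lists that follow stand beside 7.2% of all genes for ventilation in wild type, 16.4% in Zmpste24-/-, 6.31% for genotype at baseline and 10.8% under ventilation. Of 11 genes of glutathione synthesis and recycling, 6 were higher and 0 lower in wild type, and 7 and 0 in Zmpste24-/-. Slc7a11, the cystine importer, rose by 4.18 and 4.30, and Gclc, the catalytic subunit of the rate-limiting ligase, by 1.94 and 2.17. Chac1, which degrades glutathione, rose by 1.91 and 3.29. Gclm, the ligase's other subunit, rose by 1.16 and 1.06. The 18 cytosolic and kappa transferases had 0 higher and 3 lower in wild type and 0 higher and 4 lower in Zmpste24-/-, with medians of -0.09 and -0.24 against 0.55 and 0.57 for the glutathione genes. For genotype only Chac1 passed among the glutathione genes, under ventilation (1.08, adjusted p = 0.00736).

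The donors of the other conjugations were measured as well. Of 11 genes that make or carry UDP-glucuronate and active sulfate, 0 rose and 1 fell on ventilation in wild type, and 3 rose and 1 fell in Zmpste24-/-. Ugdh, which makes UDP-glucuronate, rose by 0.79 in Zmpste24-/- (adjusted p = 0.00101), and the nucleotide sugar carrier Slc35d2 fell in both (-0.54 and -0.47). Papss2, which makes active sulfate, was higher in Zmpste24-/- at baseline and under ventilation (0.47 and 0.53), and Slc35b3, which carries active sulfate, lower (-0.60 and -0.55).

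Carbonyl enzymes outside the aldo-keto reductases split. Of 19 such genes, 2 rose and 3 fell on ventilation in wild type, and 1 rose and 7 fell in Zmpste24-/-. The quinone reductase Nqo1 rose in both genotypes (0.62 and 0.45), while its relative Nqo2 (-0.66 and -0.62) and alcohol dehydrogenase Adh1 (-0.78 and -1.36) fell in both. For genotype 2 were higher and 0 lower at baseline, Aldh1a7 (0.66) and Adh5 (0.34), and 2 were higher and 1 lower under ventilation. Of 14 other conjugating and deconjugating enzymes, 1 rose and 2 fell in wild type, and 0 rose and 2 fell in Zmpste24-/-. Nnmt, a methyltransferase of nicotinamide, rose in wild type (0.63). Inmt, a methyltransferase of indoles, fell in both (-0.58 and -0.75). As3mt, which methylates arsenic, was lower in Zmpste24-/- at baseline and under ventilation (-0.67 and -0.57).

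Of 15 transporters of conjugates, 2 rose and 1 fell in wild type, and 1 rose and 3 fell in Zmpste24-/-, beside 3.67% and 3.53% of all genes in wild type and 8.89% and 7.52% in Zmpste24-/-. Without wild type baseline replicate 2 the wild type counts were 1 and 0. The efflux pump Abcb1b rose in both (0.66 and 0.49), the prostaglandin carrier Slco2a1 fell in both (-0.34 and -0.35), and the uptake carrier Slco2b1 fell in Zmpste24-/- (-0.55). Of 18 transcription factors of detoxification, 5 rose and 1 fell on ventilation in wild type and 7 rose and 1 fell in Zmpste24-/-. The gene of NRF2, Nfe2l2, rose by 0.53 and 0.97, and its small partners Maff by 1.43 and 1.54 and Mafk by 0.50 and 1.25. Ahr fell in wild type (-0.33) and rose in Zmpste24-/- (0.85), an interaction of 1.18 (adjusted p = 0.00401) and the only gene of the list to pass there. Without wild type baseline replicate 2, ventilation in wild type gave 3 higher and 0 lower factors, so the fall of Ahr there no longer passed. The same comparison then gave 1 higher and 2 lower carbonyl enzymes, 1 higher and 1 lower other conjugating enzymes and 1 higher and 1 lower donor genes. For genotype at baseline, leaving that array out gave 1 higher carbonyl enzyme in place of 2.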

How the data were processed

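Whole lung RNA of 12 mice (100 ng per array, extracted with Trizol) was hybridised to 1 array each. The values are log2 expression per probe, normalized and deposited by the authors; RMA and limma are named in the submitters' processing notes, with no versions. The sources used here do not give the build the probes were designed on. RMA quantile-normalizes arrays, so a shift of all genes at once would not be seen. Precision is limited by 3 arrays per group, and no depth applies. Of 41345 probes, 23521 were paired with 1 symbol, 1814 with several and 16010 with none. Of the first, 23328 matched RefSeq by gene identifier and 193 did not, and 22180 genes were tested.

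limma 3.58.1 (R 4.3.3; Python 3.11.15 elsewhere) fitted 1 mean per group over all 12 arrays (8 residual degrees of freedom) and 5 comparisons, adjusted by Benjamini-Hochberg over all genes, threshold 0.05; the procedure was tested on simulated data. Each p-value sets a difference against a spread between mice that was pooled over the 4 groups and moderated across all genes. An array outside a comparison can therefore alter its p-value. The members and all lists were chosen with earlier results of these data known. Named are all members past the threshold, with array values for those with the smallest adjusted p and the 3 brightest, and up to 4 genes per pathway list. Array values of Gsta3, Gstp2, Sult1d1 and Ugt2b1, and some further genes and members near the threshold, were added after values were seen. Alternatives were filters at the 25th percentile and median of mean expression, array median subtraction, a further quantile normalization, a trended robust variance, array weights, the compared groups alone, a replicate block, the mean of a gene's probes, each array left out and, added after the arrays were seen, a club cell covariate. Sequence identity between the proteins was not analysed here.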

Additional observations from a re-analysis of the deposited data

Results flagged for a closer look

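Of the 10 probes that carry a symbol of these families among several, 3 passed the threshold over all 41345 probes, and the comparisons above do not use them. No gene is named from them. The probe paired with 8 Ugt1 symbols differed by -0.32 ± 0.07 (SE) on ventilation of Zmpste24-/- (adjusted p = 0.0196), from 5.94, 5.89 and 5.87 at baseline to 5.60, 5.53 and 5.62. The probe paired with 4 symbols, with alpha class members among them, was 0.76 ± 0.17 higher in Zmpste24-/- at baseline (adjusted p = 0.03), with 7.04, 6.73 and 6.80 against 6.09, 5.97 and 6.23. The probe paired with 2 pi class symbols was 0.49 ± 0.11 higher in Zmpste24-/- under ventilation (adjusted p = 0.0228), with 10.17, 10.17 and 10.12 against 9.91, 9.56 and 9.52. In each case the groups did not overlap. Groups of 3 arrays were not tested for outlying arrays.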

How the results depend on the processing

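The 27 differences of members past the threshold had 432 values under alternatives: 367 kept direction and call, 65 lost the call and 0 changed sign, and 14 of the 27 held under all. The count for ventilation in wild type, 4, was 2 with array weights, 1 with the compared groups alone and 2 with the club cell covariate, and 1 to 4 with an array left out (1 without baseline replicate 2 or ventilated replicate 1 or 3). Leaving out an array gave 5 to 9 members for ventilation in Zmpste24-/- (5 without ventilated replicate 3), 6 to 8 for genotype at baseline, 4 to 7 for genotype under ventilation (4 without ventilated replicate 3 of either genotype) and 0 to 1 for the interaction (1, Gstt2, without wild type baseline replicate 1). Correlations of deviations between same-numbered arrays of different groups were -0.152 to 0.153 over 18 pairs (median 0.0384). For different numbers they were -0.245 to 0.234 over 36 pairs (median 0.0034). The numbers thus gave no sign of paired mice, but weak correlations with 3 arrays per group cannot exclude pairing. With the replicate block the 5 counts were 3, 11, 7, 7 and 0: Akr1b10 was lost in wild type (adjusted p = 0.0647), and Akr1b8 (0.43, adjusted p = 0.0473) and Sult5a1 (-0.31, adjusted p = 0.0323) were added for ventilation in Zmpste24-/-. The wild type comparison gave 923 to 1736 genes in all over the settings that used all arrays of the groups, against 1597 as reported, with 923 for the compared groups alone. Genotype at baseline gave 885 with the club cell covariate, against 1399, and the interaction gave 23 to 164, against 70. Members dim on every array limit what could be detected among Ugt2, Sult2a and Akr1c genes.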

Other observations

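Many members lie in 10 clusters of neighbouring genes. Sult1d1 lies between Sult1b1 and Sult1e1 in a stretch of 11 members that begins with the 8 Ugt2 genes. At baseline its genotype difference was 1.82, beside -0.07 for Sult1b1 and 0.07 for Sult1e1, both dim on every array. In the cluster of 4 theta genes the ventilation differences in Zmpste24-/- were -0.35 for Gstt3, -0.29 for Gstt1, 0.16 for Gstt4 and -1.25 for Gstt2, in genomic order. For the pair Akr1b8 and Akr1b10 they were 0.43 and -0.40, of which the second passed. Differences between neighbours were not tested.

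Akr1cl was the only member with more than 1 probe. Its probes had means of 4.92 and 3.92 in wild type at baseline and 5.13 and 3.90 in Zmpste24-/- at baseline, and neither choice brought it past the threshold.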
